A study of Mus musculus with 10 samples.

Results

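The polyadenylated RNA of single untreated mouse oocytes, matured to metaphase II and arrested there as eggs are until a sperm arrives, was read from 5 libraries out of 10 in the series, those titled as control replicates 1 to 5. The oocytes came from the ovaries of ICR mice, an outbred stock, aged 6 to 8 weeks. They were taken at the germinal vesicle stage, with the nucleus still intact, and cultured for 16 h at 37 °C in 5% CO2 without any agent, so they matured in a dish and were not ovulated. The other 5 libraries, from oocytes that matured with TubA, were not used. The labels name no animal, so n counts oocyte libraries and the spread joins differences between cells, between mice and between amplifications.

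A metaphase II oocyte is known to make little new RNA. Its transcripts were laid down while it grew, and it draws on that store for meiosis, for fertilisation and for the start of the embryo. Many stored messengers are kept with short poly(A) tails and are lengthened and translated during maturation, steered by elements near their 3′ end that bind CPEB1. Others are shortened and degraded, with BTG4 as an adaptor that brings the deadenylase to them. The amplification used here, Smart-seq2, copies RNA from its poly(A) tail, so the values describe polyadenylated RNA.

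All values are TPM, a transcript's abundance per length, scaled so that every library sums to 1000000. They say nothing about the amount of RNA per cell or the depth of a library. Transcripts were summed to genes. Values per library are given in the order of control replicates 1 to 5, and means with ± are mean ± SD over these 5 libraries. Control replicates 1 and 3 stood apart from the others in sets of genes described below. For some of these genes the spread is also given without the library that stood apart.

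The libraries held the messengers of an oocyte. No marker that tells metaphase II from the germinal vesicle stage was checked, so the stage rests on the label. Each of the 6 oocyte markers lay above 200 TPM in every library: the linker histone H1foo, the BCL2 family member Bcl2l10, the decay adaptor Btg4, the growth factor Gdf9, the egg coat protein Zp3 and the kinase Mos. Together they held 5.02 ± 0.809% of TPM. Of 14 markers of cumulus and granulosa cells, which surround the oocyte in the follicle, 3 reached 1 TPM in every library, namely Cyp19a1 at 10.5 ± 2.60 TPM, Nr5a2 at 6.49 ± 1.48 TPM and Cyp11a1 at 3.14 ± 0.883 TPM. The summed level of the list ran from 19.9 to 25.6 TPM, and Amh, Foxl2 and Ptx3 were listed at 0 in all libraries. Theca and stroma markers summed to 5.12 to 22.1 TPM, with 1 of 9 at 1 TPM in every library. Blood, immune and endothelial markers summed to 31.8 to 82.4 TPM, with 4 of 11 at that level, led by Pecam1 and C1qb. Sperm markers summed to 1.43 to 4.25 TPM, with 1 of 6 at 1 TPM in every library, and Prm1, Tnp1, Tnp2 and Acr were listed at 0 in all.

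The 3′ ends of a few transcripts are shown first, because genes that were low in 1 library seldom held the element described here, as given further on. The search was for the letters TTTTAT or TTTTAAT, 2 forms of the cytoplasmic polyadenylation element, on the transcript strand in the last 100 bases of the most abundant transcript of each gene, where that transcript was protein coding. The form TTTTAAT can overlap the polyadenylation signal AATAAA. Capitals mark the element in the first 4 sequences, each of which is an abundant oocyte messenger. The genes shown were chosen after their matches were known.
Gdf9, chr11:53437854-53437883, plus strand: agagtgctgtggTTTTATgtgacggaagaa
H1foo, chr6:115950157-115950186, plus strand: cgattctgaagcTTTTATtgtctaataagc
Btg4, chr9:51119797-51119826, plus strand: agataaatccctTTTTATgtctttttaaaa
Bcl2l10, chr9:75351579-75351608, plus strand: cccttaatacatTTTTAATaacttcaaatt

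Capitals mark the polyadenylation signal AATAAA in the next 5, which lacked both element forms in their last 100 bases. Of these, 4 belong to genes that were low in control replicate 1. Mos is shown as a gene with no match in those bases that was not low in that library.
Zp1, chr19:10914289-10914318, minus strand: actcAATAAAccattgtttgaaaactcctg
Zp2, chr7:120132350-120132379, minus strand: caAATAAAgagactgcagttaaactcttgt
Khdc3, chr9:73104409-73104438, plus strand: ttaaagtattctAATAAAaaaaaaattgca
Tle6, chr10:81590905-81590934, minus strand: agttgcgtgtAATAAAacaattgaaatggc
Mos, chr4:3870657-3870686, minus strand: ttttaggaAATAAAgttaccacgaacttca

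All 9 windows lie in a 3′ untranslated region, are given 5′ to 3′ as in the transcript, and come from the GENCODE M21 transcripts with coordinates of GRCm38. Among 14737 leading coding transcripts above 0 TPM, 16.7% held the element in their last 100 bases. The share was 13.5% for genes with a mean below 1 TPM and 14.8% between 1 and 10 TPM. The element stood in 728 of 3641 transcripts between 10 and 100 TPM, in 28.4% between 100 and 1000 TPM and in 27.3% of the 110 transcripts of genes at 1000 TPM or more. Abundant transcripts were also shorter, with a median length of 1508 bases at 1000 TPM or more against 2383 bases over all, and their last 100 bases held less G and C, at a median of 32.5% against 37%. A match to these letters is a description and does not show that a factor binds there. Other forms of the element and the 3′ ends of a gene's other transcripts were not searched. A transcript called without the element here may therefore still hold one.

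A few genes made up much of each oocyte's polyadenylated RNA. The 10 most abundant genes of a library held 14.6 ± 2.42% of its TPM, the top 100 held 38.8 ± 2.41% and the top 1000 held 74.2 ± 1.96%. Control replicate 1 had the steepest distribution, with 18.7% in its top 10 genes against 12.3 to 14.3% in the other 4 libraries. In that library 175 genes held 50% of TPM, against 225 to 271 genes in the others. The libraries shared 7 genes among their 10 most abundant and 62 among their 100 most abundant.

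**Figure D1:**
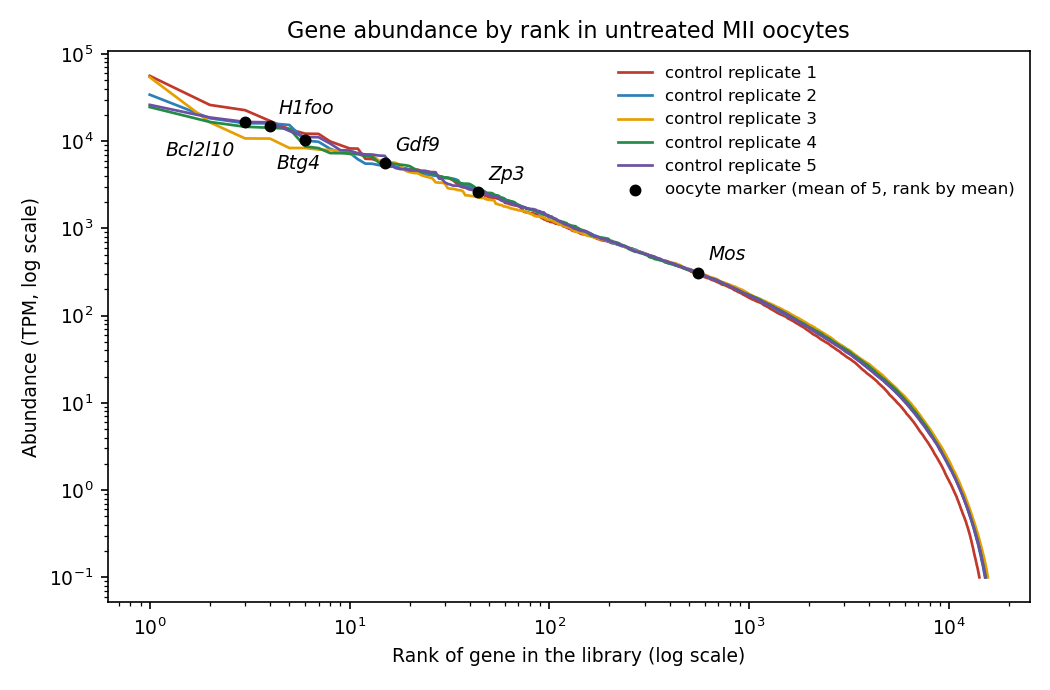
Abundance in TPM (log scale) against rank of the gene (log scale) in each of the 5 control libraries, as lines, down to 0.1 TPM. Black points give the 6 oocyte markers at their mean level and their rank by mean, from Bcl2l10 near the top to Mos at rank 556, and the line of control replicate 1 falls below the others toward the right.

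The 3 most abundant named genes were Zbed3, Bcl2l10 and H1foo. Zbed3, a member of the subcortical maternal complex, the protein lattice under the egg membrane, stood at 26026, 18321, 16452, 14246 and 18698 TPM. Bcl2l10, a regulator of cell death that is characteristic of oocytes, stood at 22666, 15992, 10708, 16601 and 16445 TPM. H1foo, the linker histone of the egg, stood at 17051, 16048, 10748, 13880 and 16617 TPM. For the last 2 genes control replicate 3 was the lowest library, and replicate 1 the highest for all 3.

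Below them came Hsp90aa1, a chaperone, at 12704 ± 2745 TPM, Btg4 at 10332 ± 2156 TPM and Slbp, which binds the stem-loop of histone messengers, at 9951 ± 1825 TPM. Rbbp7, a histone-binding subunit of chromatin complexes, stood at 7738 ± 833 TPM, Rfpl4, a RING finger protein of oocytes, at 7448 ± 637 TPM and Spin1, a reader of histone marks, at 6158 ± 827 TPM. The top 25 also held Gdf9, which ran from 4708 TPM in replicate 1 to 6845 TPM in replicate 5. Others with a known role were Pttg1, the securin that holds separase inactive, Rdx, radixin, which ties actin to the membrane, Ube2d3, a ubiquitin-conjugating enzyme, Bpgm, bisphosphoglycerate mutase, and Mat2b, a regulatory subunit of methionine adenosyltransferase. The steadiest of the 25 was Mat2b, at 3806 to 4396 TPM. The least steady was Elobl, at 412, 5509, 1648, 7282 and 4615 TPM, which was lowest in replicate 1 and next lowest in replicate 3.

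**Figure D2:**
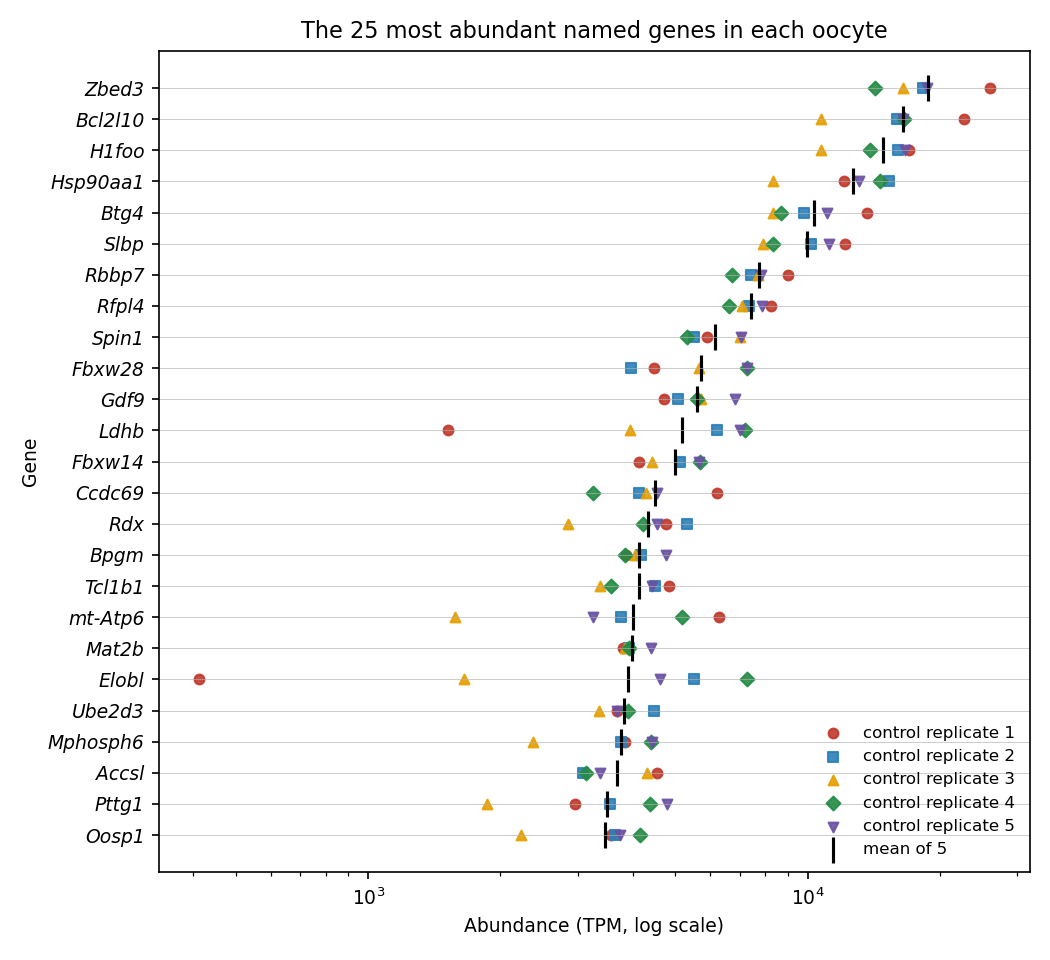
Abundance in TPM (log scale) of the 25 most abundant named genes, 1 point per control library and a bar for the mean of the 5. Most of these genes span less than 2-fold, while Ldhb and Elobl have control replicate 1 far to the left at 1516 and 412 TPM.

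Of the rows above the last of these 25, 8 bore accession-like names or were pseudogenes and were passed over. The first of them, Gm31941 (chr7:46975366-46975715, plus strand), was the most abundant row of all, at 56100, 34116, 54165, 24602 and 26084 TPM. It is annotated as a processed pseudogene of 350 bases, 83.6% identical to Elob, and lies within the non-coding gene C86187 (chr7:46967711-46975911, minus strand), whose transcripts were not analysed here. The strand of the reads is not known, so its reads and those of C86187 cannot be told apart. Gm10925, a nuclear copy, matched the mitochondrial gene mt-Atp6 over 678 bases at 100% identity, and the pair stood at 8152.5 ± 3107 TPM together. The F-box genes Fbxw28 and Fbxw14 share 73.9% and 70.4% of their words of 31 bases with other listed genes. They stood at 5731 ± 1544 TPM and 5003 ± 705 TPM, and at 10733 ± 2095 TPM together, so their split is uncertain. Of the 100 most abundant genes, 24 shared at least 20% of their words with another gene.

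At 1 TPM or more, a library listed 11304 ± 445 genes, from 10536 in control replicate 1 to 11697 in replicate 3. There were 9107 genes at that level in all 5 libraries and 13947 in at least 1. Of 22013 protein-coding genes, 8781 or 39.9% reached it in every library, and 4051 were listed at 0 in all. Of the 948 on the X chromosome, 279 or 29.4% reached 1 TPM in every library. Protein-coding genes held 92.4 ± 1.68% of TPM and processed pseudogenes 5.21 ± 1.54%, most of the latter as Gm31941.

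Gene groups differed widely in level. The median over all protein-coding genes was 0.968 TPM, as a mean of the 5 libraries. The 7 genes of the subcortical maternal complex had a median of 1149 TPM and held 2.69 ± 0.142% of TPM, most of it as Zbed3. All 7 were at 1 TPM or more in every library, with Padi6 at 1080 ± 369 TPM and Ooep, the smallest of them in level, at 348 ± 63.7 TPM. The egg coat list, Zp1, Zp2, Zp3 and the protease Astl, had a median of 1796 TPM. The 6 Tcl1 family genes, which encode activators of AKT kinases or their relatives, had a median of 1977 TPM and held 1.20 ± 0.199% of TPM. Tcl1b1 and Tcl1b2 share sequence, and together they stood at 6937 ± 1109 TPM.

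The arrest at metaphase II is known to rest on the MOS and MAP kinase cascade, on cyclin B with CDK1, and on EMI2, encoded by Fbxo43, which blocks the anaphase promoting complex. Of 21 genes on that list, 20 reached 1 TPM in every library, and the list held 0.516 ± 0.0542% of TPM. Ccnb1, cyclin B1, stood at 1719, 1424, 1842, 1417 and 1642 TPM. Map2k1, the kinase below MOS, stood at 867 ± 239 TPM, Mapk3 at 677 ± 232 TPM, Wee2, an inhibitory kinase of CDK1, at 628 ± 133 TPM and Fbxo43 at 330.5 ± 79.5 TPM. Mos itself ranked 556 by mean, at 317, 256, 285, 344 and 346 TPM, with no library apart. The p90 kinase gene Rps6ka2 stayed below 1 TPM in every library.

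All 18 genes of the anaphase promoting complex list reached 1 TPM in every library. The securin Pttg1 led at 3504 ± 1163 TPM, and Cdc20, the activator of the complex, followed at 579 ± 41.2 TPM. All 22 genes of the spindle and checkpoint list did so too, led by Birc5, survivin, at 1301 ± 515 TPM and Bub1b, a checkpoint kinase, at 724 ± 185 TPM. Of 13 genes of cohesin, which holds sister chromatids together, and of the factors that protect, release or cleave it, 10 reached 1 TPM throughout and 1 had a mean of 100 TPM or more. That one was the separase Espl1 at 173 ± 110 TPM, of which the coding form Espl1-202 made up 32.6 to 57.1 TPM and a retained-intron form of 296 bases most of the rest outside replicate 3. Rec8, the meiotic cohesin subunit, stayed below 1 TPM in every library.

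Among genes of messenger storage and decay, the decay list held 1.38 ± 0.223% of TPM, most of it as Btg4. The catalytic deadenylases Cnot7, at 1055 ± 288 TPM, and Cnot8, at 552 ± 90.1 TPM, were next with the decapping gene Dcp1a at 765 ± 350 TPM. All 18 storage genes reached 1 TPM in every library. Zar1, an RNA-binding protein of stored messengers, stood at 2497 ± 684 TPM, Dazl at 474 ± 64.7 TPM and Cpeb1 at 254, 302, 278, 279 and 229 TPM. The highest of these levels of Cpeb1 was 1.32-fold above the lowest.

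Other lists were led by 1 or a few genes. Bcl2l10 made up most of the apoptosis list, in which Birc3 stood at 1193 ± 155 TPM, Bcl2l1 at 114 ± 37.2 TPM and Bcl2 and Bak1 below 1 TPM in every library. Of 24 genes of egg chromatin all reached 1 TPM throughout, with Npm2, the chaperone that remodels sperm chromatin, at 829, 2756, 1013, 3486 and 1536 TPM. Npm2 spanned about 4-fold, with replicates 1 and 3 lowest. Of 16 oocyte transcription factor genes 12 reached 1 TPM in every library, led by Obox5 at 1794 ± 335 TPM, and Sohlh1 stayed below 1 TPM. Among glycolysis genes Ldhb stood at 5176 ± 2423 TPM and Gapdh at 136 ± 72.5 TPM. Gapdh shares 31.8% of its words with other listed genes and came to 402 ± 79.0 TPM with its copies.

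Among secreted growth factors, Bmp15, the partner of Gdf9 in signalling to cumulus cells, stood at 1470, 2424, 3739, 2552 and 3075 TPM, while Fgf8 and Bmp6 stood at 36.4 ± 17.6 TPM and 29.3 ± 10.5 TPM. Bmp15 spanned 2.54-fold and Gdf9 1.45-fold, both with replicate 1 lowest. Of 11 genes of the oocyte NLRP family, relatives of Nlrp5, 10 reached 1 TPM in every library. Nlrp14 led at 1947 ± 624 TPM and Nlrp9c followed at 1597 ± 70.5 TPM, while Nlrp4d stayed below 1 TPM.

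The Oas1 family, whose oocyte members are relatives of an antiviral RNA sensor, held 0.563 ± 0.157% of TPM. Oas1d stood at 5015, 4885, 3266, 1291 and 1582 TPM, and Oas1e at 1545, 1374, 1651, 1732 and 1774 TPM. Oas1d was thus lower in replicates 4 and 5 than in the other libraries, and Oas1e was level. The pair shares 22 to 24% of its words with other listed genes. All 15 genes of the SCF ubiquitin ligase list reached 1 TPM throughout and together came to 20009.9 ± 3475 TPM, with Fbxw24 at 2466 ± 554 TPM after Fbxw28 and Fbxw14.

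Of 17 tubulin genes 11 reached 1 TPM in every library, and Tubb2a stood at 41.5, 190, 167, 371 and 358 TPM. Over 50% of the words of Tubb2a occur in other tubulin genes. Of 18 redox genes 15 reached it, led by the peroxiredoxin Prdx1 at 3195.5 ± 635 TPM. Of 18 genes of small RNA pathways 12 did so, and 2 had a mean of 100 TPM or more, the helicase Ddx4 and the Argonaute gene Ago3 at 129 ± 24.3 TPM. Dicer1, the nuclease that makes small RNAs, stood at 25.2 ± 5.10 TPM. Of 40 proteasome genes 32 did so, with a median of 19.1 TPM, and of 55 translation initiation factor genes 46, with a median of 31.9 TPM. Eif5 led the latter at 1585 ± 421 TPM.

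The 84 cytosolic ribosomal protein genes had a median of 5.34 TPM and held 0.218 ± 0.0440% of TPM, where many have near copies among pseudogenes. The 13 genes of the mitochondrial genome held 1.27 ± 0.317% of TPM, from 0.821% in replicate 3 to 1.63% in replicate 1. Of 6 markers of the next stage, the embryo of 2 cells, Tcstv1 stood at 145 ± 54.3 TPM and Tcstv3 at 48.9 ± 13.1 TPM, while Zfp352 stayed below 1 TPM. Tcstv1 and Tcstv3 each share at least 20% of their words with other listed genes, and with its copies Tcstv3 came to 227 ± 65.6 TPM.

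Most genes were led by 1 transcript. For 5500 genes with at least 2 annotated transcripts and a mean of 10 TPM or more, the leading transcript held a median of 75.5% of the gene's TPM. It held 90% or more in 1727 genes (31.4%) and less than 50% in 866 genes (15.7%). In 4426 genes (80.5%) it was protein coding, in 478 a processed transcript without an open reading frame, in 346 one with a retained intron and in 229 a predicted target of nonsense-mediated decay. The same transcript led in all 5 oocytes for 4043 genes (73.5%), and for 92.0% of genes at 1000 TPM or more.

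Of the genes whose leader differed, Lonp2, a peroxisomal protease, had Lonp2-201 with 79.5% of its TPM in control replicate 1. In replicates 2 to 5 Lonp2-202, a transcript of 1550 bases against 2860, held 89.0%, 83.6%, 95.3% and 90.6%. The level of the longer Lonp2-201 was 17.9, 15.6, 14.5, 9.93 and 12.8 TPM, and that of Lonp2-202 was 4.22, 127, 75.2, 215 and 127 TPM. The libraries thus differed in the shorter form. In Espl1 the retained-intron form Espl1-206 of 296 bases led in replicates 1, 2, 4 and 5 and was listed at 0 in replicate 3, where the coding Espl1-202 held 85.6%. In Zfp616 the form Zfp616-205 held 67.4% in replicate 3 and was listed at 0 in the other libraries. Trmt13-208 led in replicates 1 to 3, with 56.2 to 72.6%, and was listed at 0 in replicates 4 and 5. Rps2 and Kpna2 also changed leader, but 43.4% and 74.3% of their words occur in other listed genes.

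The oocytes were alike across genes. For pairs of libraries, over 11727 genes with a mean of 1 TPM or more, Pearson's r of log2(TPM + 1) ran from 0.897 to 0.955, with a mean of 0.918. Genes are not independent replicates, so r is a description of the libraries. Replicates 4 and 5 were the closest pair, and replicate 3 had the lowest mean r with the others, at 0.902.

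Spread was measured as the SD over the 5 libraries of log2(TPM + 1). Its median fell from 0.60 for genes with a mean of 1 to 3 TPM to 0.31 for those of 300 to 1000 TPM, and was 0.32 at 1000 TPM or more. Over the 6188 genes at 10 TPM or more the median was 0.43, which was 0.32 without control replicate 3 and 0.25 without replicates 1 and 3.

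The 12 named genes of lowest spread at 100 TPM or more had an SD of 0.03 to 0.08. Nae1, a subunit of the enzyme that activates NEDD8, stood at 517, 505, 522, 504.5 and 527 TPM. Pold3, a subunit of DNA polymerase delta, stood at 283, 276, 285, 270 and 282 TPM. The highest library lay 1.05-fold above the lowest in Nae1 and 1.06-fold in Pold3. The others were Lrp1b, Atg5, Ywhae, Nlrp9c, Rnf34, Herpud2, Cnbp, Yeats4, Rcan3 and Nfe2l1, of which Nlrp9c was the most abundant at 1534 to 1709 TPM.

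**Figure D3:**
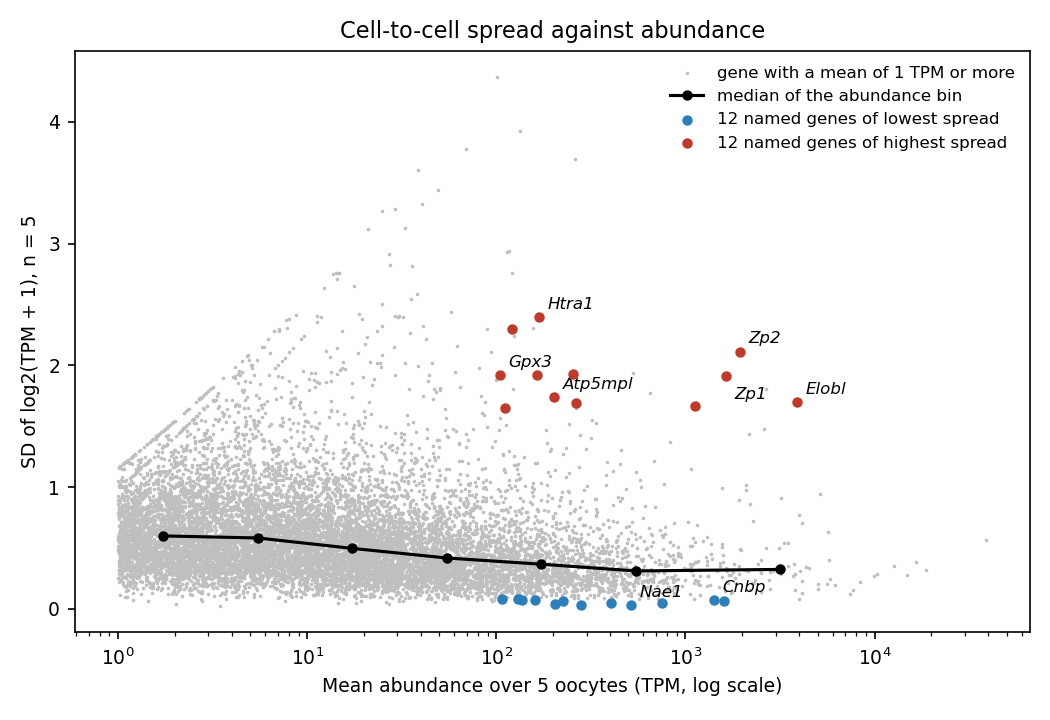
SD of log2(TPM + 1) over 5 control libraries against mean abundance (TPM, log scale) for genes with a mean of 1 TPM or more, with the median of each abundance bin as a black line. Blue points, the 12 named genes of lowest spread, lie at 0.03 to 0.08, and red points, the 12 of highest spread, at 1.65 to 2.39.

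Among the 12 named genes of highest spread, control replicate 1 was the lowest library in 11. Zp2, a protein of the egg coat that binds sperm, stood at 93.1, 2706, 1482, 3256 and 2240 TPM. Zp1, which crosslinks coat filaments, stood at 105, 2197, 1369, 2552 and 1956 TPM. Htra1, a secreted serine protease, stood at 4.20, 229, 159, 289 and 159 TPM. Replicate 1 lay 26.0-fold, 19.3-fold and 49.8-fold below the mean of the other 4 libraries in these 3 genes. Without it the SD of Zp2 went from 2.11 to 0.49, that of Zp1 from 1.92 to 0.38 and that of Htra1 from 2.39 to 0.42. The same library was the lowest for Ergic3, Mtfr1l, Atp5mpl, Elobl, Map1lc3a, Rpl41, H2-Aa and Med28. H2-Aa, a class II antigen-presenting gene of immune cells, and Med28 kept an SD of 1.71 and 1.59 without it. H2-Aa stood at 5.93, 17.7, 191, 142 and 250 TPM. The summed blood, immune and endothelial markers were also lower in replicates 1 and 2, at 31.8, 39.6, 82.4, 68.9 and 73.9 TPM. Of these 11 markers 4 reached 1 TPM in every library, led by Pecam1 and C1qb. Ptprc, the marker of all white blood cells, stayed below 1 TPM in every library. The part of blood, immune and endothelial cells was not tested. Gpx3, a secreted glutathione peroxidase, was the exception, at 122, 144, 5.65, 112 and 140 TPM, with control replicate 3 low. Without replicate 3 the SD of Gpx3 went from 1.92 to 0.17. Another 6 named genes as variable shared at least 20% of their words with other genes, so reads may be split differently between libraries.

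The libraries that stood apart were counted over the 1602 genes with a mean of 100 TPM or more. Control replicate 1 was more than 2-fold lower than each of the other 4 libraries in 75 genes (4.68%) and more than 2-fold higher in 10 (0.624%). Control replicate 3 was lower in 69 (4.31%) and higher in 42 (2.62%). Replicate 2 was lower in none (0%) and higher in 2 (0.125%), replicate 4 lower in 1 (0.0624%) and higher in 2 (0.125%), and replicate 5 lower in 2 (0.125%) and higher in none (0%). The mean, the level that chose the genes, includes the library itself. The rule was chosen after the values were seen, as were the genes named for it in the rest of this account.

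The genes low in control replicate 1 included many of the egg's surface and cortex. Of the egg coat list 3 of 4 were among them, against 4.68% of all genes counted, and of the subcortical maternal complex 3 of 7, Khdc3, Tle6 and Nlrp5. Khdc3, which shares 37% of its words with other genes, stood at 214, 3184, 1696, 5607 and 2599 TPM. Tle6 stood at 541, 2054, 2798, 3224 and 1817 TPM. Nlrp5, also called Mater, stood at 457, 1278, 1342, 1361 and 1310 TPM, a level on which the other 4 oocytes differed by an SD of 36.4 TPM. Without replicate 1 the SD of log2 values went from 1.81 to 0.72 for Khdc3, from 1.02 to 0.38 for Tle6, from 0.69 to 0.04 for Nlrp5 and from 1.47 to 0.95 for Zp3. In the same complex, Zbed3 was highest in replicate 1, and Ooep, at 288, 352, 297, 447 and 358 TPM, had replicates 1 and 3 lowest and nearly level.

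Both of the sperm fusion genes with a mean of 100 TPM or more were low in replicate 1 as well, against 4.68% of all genes counted. Izumo1r, the egg receptor for the sperm protein IZUMO1, stood at 103, 401, 209, 773 and 419 TPM. Cd9, a tetraspanin needed for fusion, stood at 35.5, 282, 139, 382 and 134 TPM. Ldhb, lactate dehydrogenase B, stood at 1516, 6212, 3935, 7193 and 7022 TPM, with an SD of log2 values of 0.95 that was 0.40 without replicate 1. In that library the respiratory chain genes Cox6a1 and Cox6c stood at 73.6 and 44.9 TPM, against 316 to 573 and 249 to 494 TPM in the others. The elongin C gene Eloc, at 257, 1604, 625, 1839 and 1002 TPM, was low there too. The 10 genes high in replicate 1 included Pfdn4, a prefoldin subunit, at 4919, 1794, 945, 1579 and 1752 TPM. The summed markers of cumulus and granulosa cells stood at 21.5 TPM in replicate 1 and between 19.9 and 25.6 TPM in all 5. Of these 14 markers, 9 lay below 1 TPM in every library, and the part of such cells was not tested.

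**Figure D4:**
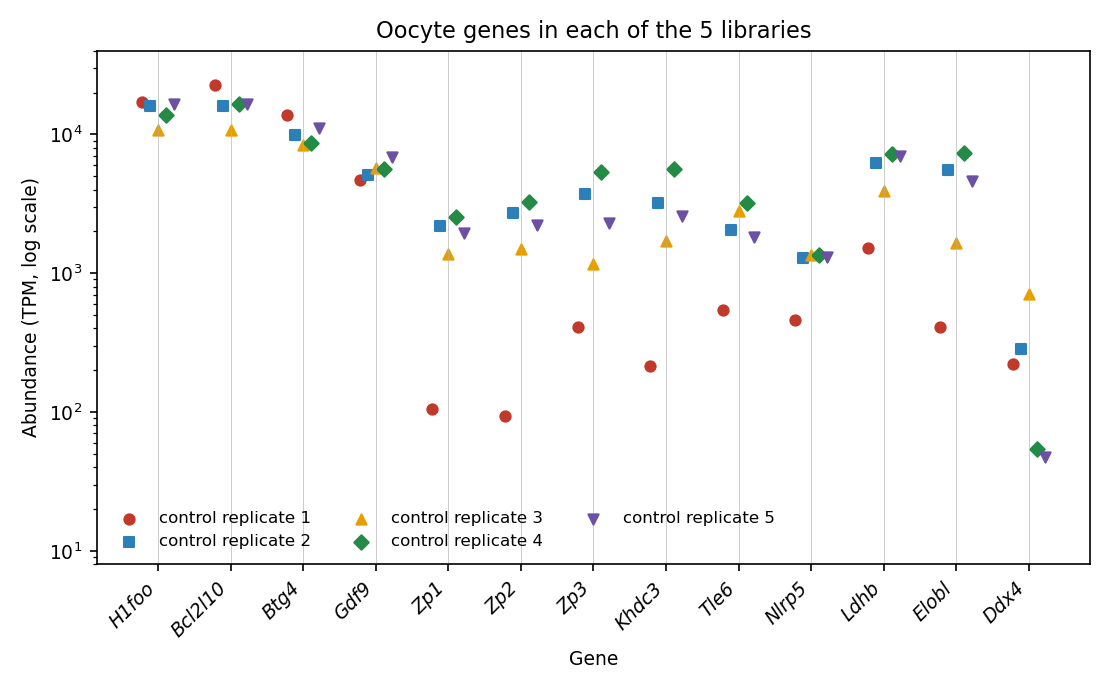
Abundance in TPM (log scale) of 13 genes in each control library, 1 point per library. H1foo, Bcl2l10, Btg4 and Gdf9 lie close together in all 5, while control replicate 1 lies below the others for Zp1, Zp2, Zp3, Khdc3, Tle6, Nlrp5, Ldhb and Elobl, and replicate 3 is highest for Ddx4.

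The genes low in control replicate 1 seldom carried the element shown above. Of 60 with a leading coding transcript, 2 (3.33%) held it in the last 100 bases, against 28.3% of all 1279 such transcripts at 100 TPM or more. Restricted to transcripts with a polyadenylation signal, AATAAA or ATTAAA, in the last 40 bases, the counts were 0 of 42 against 34.8%. Read over all 1279 transcripts, of the 10% that were lowest in replicate 1 against the mean of the other 4 libraries, 6 of 128 (4.69%) held the element. In the other libraries that share was 36.7%, 29.7%, 35.9% and 22.7%, for replicates 2 to 5. Counted the other way, 1.66% of the 362 transcripts with the element and 13.3% of the 917 without it fell in the lowest 10% of replicate 1.

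Of the 10% that were highest in control replicate 4, 8 of 128 (6.25%) held the element. Since every library is set against the other 4, a low value in replicate 1 raises the others, and without replicate 1 that share was 12.5%. The medians moved little. Transcripts with the element lay 0.10 (log2) above the mean of the other libraries in replicate 1, and those without it lay 0.02 below. Many transcripts without the element were not low in that library, among them those of Ccnb1, Mos, Slbp and Rbbp7, and the last 2 had their highest value there. The transcripts of Nae1, Cnbp, Ywhae and Nlrp9c had no match either. These genes were chosen for low spread over the same libraries, so they could not have been low there.

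Base composition moved with the element. The genes low in replicate 1 had a median of 41% G and C in their last 100 bases, against 34% of all at that level. Within 3 classes of this content of about equal size, the share with the element among the 10% of the class that were lowest in replicate 1 was 33.3%, 7.14% and 0%, from low to high content. Over all transcripts of these classes the share was 47.0% in the first, 126 of 420 in the middle and 9.60% in the last. The part of each feature in the result was not tested. The tail length and the translation of these messengers were not measured.

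In control replicate 3 levels moved with the length of the transcript. Its 35 genes on the high side with a leading coding transcript had a median length of 3212 bases and its 53 on the low side 1639 bases, against 1921 bases over all at 100 TPM or more. The genes low in replicate 1 were shorter still, at a median of 1312.5 bases, as were the 8 high in it, at 1157 bases. In 3 classes of length of about equal size, replicate 3 lay 0.42 (log2) below the mean of the other libraries for the shortest, 0.02 above for the middle and 0.40 above for the longest. The difference between the longest and the shortest class was 0.82, against -0.28 to -0.10 in the other 4 libraries. Against a common median ratio over all genes at 10 TPM or more, replicate 3 lay 0.13 (log2) higher and the other libraries between -0.09 and 0.01.

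Genes high in control replicate 3 included Slc45a3, a membrane transporter, at 2854, 2503, 5987, 2439 and 2737 TPM, and Dnmt1, the maintenance DNA methyltransferase with a transcript of 5248 bases, at 288, 445, 960, 375 and 346 TPM. Ddx4, the germ cell RNA helicase also called Vasa, stood at 222, 286, 709, 54.5 and 47.2 TPM, so replicates 4 and 5 were low as replicate 3 was high. Genes low in it included Ube2s, which extends ubiquitin chains for the anaphase promoting complex, at 1047, 1314, 128.5, 1104 and 561 TPM. Siah2, a ubiquitin ligase, stood at 668, 459, 74.2, 461 and 619.5 TPM, and Cited2, a transcriptional coregulator, at 935, 603, 130, 1049 and 696 TPM. The element was found in 18 of the 53 low transcripts (34.0%), close to its share of 28.3% over all. Which part the length of the transcript had in these differences was not tested.

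**Figure D5:**
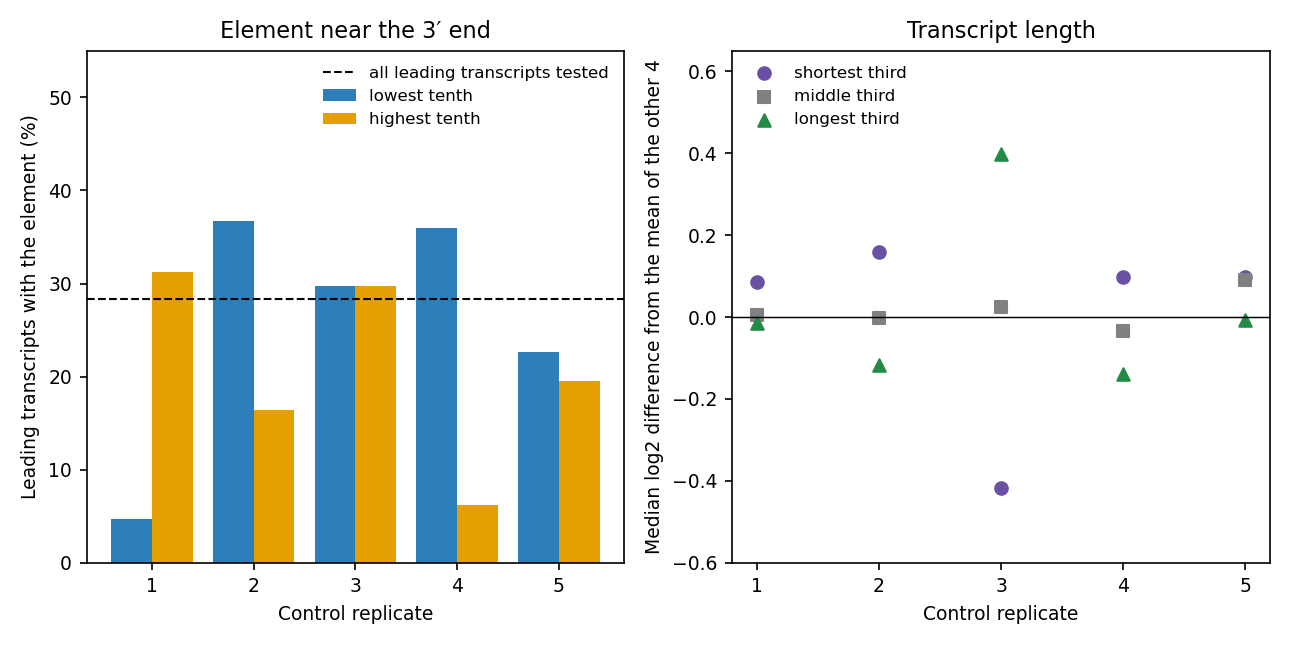
Left, percent of leading coding transcripts with the element in their last 100 bases, among the 10% of 1279 transcripts that were lowest (blue) or highest (orange) in a control library against the mean of the other 4, with the share over all 1279 (28.3%) as a dashed line. Right, median log2 difference of each library from the mean of the other 4 by transcript length. Replicate 1 has a low blue bar at 4.69%, and replicate 3 has the shortest class at -0.42 and the longest at 0.40.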

How the data were processed

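Control libraries were grouped by title. The values as deposited are TPM for single Ensembl transcripts, a unit read from their sums, which come to 1000000 in each library. Per the submitters' processing notes, the tools included Bowtie 0.12.2 and the build was mm10. The program for abundance, the release of the annotation and the strand were not stated. TPM keeps no depth, so intervals for counting error cannot be had, and precision rests on the spread over 5 libraries. Files of no 2 libraries were identical.

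Here, 113580 of 115270 transcripts matched GENCODE M21 (GRCm38, the assembly of mm10) and were summed to 35580 genes, without rescaling. The 1690 unmatched ones held 0.421 to 0.514% of TPM. The annotated set held 27 lincRNA transcripts and no mitochondrial ribosomal RNA; other non-coding genes, a list of imprinted ones, Zcchc6 and Zcchc11 were not analysed here. Summaries used Python 3.11.15, pandas 2.3.3 and numpy 2.4.6, figures matplotlib 3.10.9, and look-alikes BLAST 2.17.0. Spread and counts of libraries apart were tested on simulated data. A pseudocount of 1 was added before log2. A gene sharing at least 20% of its words of 31 bases, on either strand, with another listed gene was counted as a copy. Since 1 group is described, no groups were compared. Dixon's gap ratio marked single libraries that lay apart.

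Named genes were the 25 most abundant, the 12 of lowest and of highest spread at 100 TPM or more (the latter without copies), the 4 most abundant of each list and members below 1 TPM, the markers, and 6 genes with a changing leader, leaving out accession-like names and pseudogenes. The members, lists and rules were chosen with earlier results of these data known. Alternatives were other levels, pseudocounts, filters and scalings, ranking by median, and leaving out each library. The counts of libraries apart, the 3′ elements and their alternatives were added after the data were seen.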

Additional observations from a re-analysis of the deposited data

Results flagged for a closer look

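For 215 values over the 5 control libraries (library measures, gene classes, summed lists and named genes), 16 (7.44%) had a library so far from the others that its gap to the nearest, divided by the whole range, exceeded Dixon's 95% critical value. Chance flags about 1 in 20 groups that were not chosen for an outlying library. The named genes include those of lowest and highest spread and those with a changing leader, and the lists hold named genes, so the number here cannot be read against that rate. Control replicate 1 was the one apart in 5, replicate 3 in 9 and replicate 5 in 2.

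Control replicate 1 listed 10536 genes at 1 TPM or more, against 11409 to 11697 in the others, and 9908 protein-coding ones, against 10678 to 10943. Unprocessed pseudogenes held 1.68% of its TPM, against 1.14 to 1.27%. It was low for Nlrp5 at 457 TPM, against 1278 to 1361, and for Atp5b, a subunit of ATP synthase, at 702 TPM, against 919 to 946.

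Control replicate 3 was low in the sum of oocyte transcription factors, at 3353 TPM against 5063 to 5353, and of egg chromatin genes, at 17101 TPM against 22847 to 23722. It was low for Gpx3 at 5.65 TPM, against 112 to 144, and for Obox1 at 487 TPM, against 787 to 895, although 73% of the words of Obox1 occur in other genes. It was high for Zfp616 at 211 TPM, against 67.4 to 84.3, for Oog2 at 453 TPM, against 140 to 212, and for Sgo2a, a protector of centromeric cohesin, at 83.3 TPM, against 48.5 to 58.2. It was also high for Pecam1, an endothelial adhesion protein, at 45.1 TPM, against 20.3 to 24.3, and for Eif4e3 at 791 TPM, against 689 to 709. Control replicate 5 was high for Mat2b at 4396 TPM, against 3806 to 3932, and for the globin gene Hba-a1 at 14.9 TPM, where the other 4 were listed at 0.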

How the results depend on the processing

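No paired analysis was possible because the results come from no test and 1 group is described. Of 251 recomputed summary values, 216 stayed within the limit set for their kind, which was 1.5-fold for a count and, for other values, the SD over libraries or pairs of libraries, or a 95% binomial interval for a share of genes. All 1020 recomputed means of 170 named genes moved by less than the SD between libraries. Leaving out 1 library cannot move a mean by as much as this SD, so such values could not have exceeded the limit. They do not show that the means are robust. The same holds for summary values that are means over libraries and have this SD as their limit. The other 35 summary values are among those below. With a level of 10 TPM in place of 1 TPM, 6065 genes were listed per library and 4750 in all. Where genes with a mean of 1 and of 100 TPM or more replaced those of 10, the median share of the leading transcript was 74.1% and 78.7%, and 1 transcript led in every library for 61.5% and 83.6% of genes. Leaving out each library in turn gave 74.9 to 76.7% and 74.7 to 79.8%. The median SD of log2 values was 0.334 with a pseudocount of 10 and 0.254 without control replicates 1 and 3, and ran from 0.325 to 0.449 without each library in turn, the lowest without replicate 3. The mean r of pairs was 0.870 and 0.948 with a pseudocount of 0.1 and 10, 0.885 over genes at 10 TPM or more and 0.964 over all genes. With a mean of 50 TPM or more, and of 200, the genes low in replicate 1 numbered 119 and 38, those low in replicate 3 numbered 108 and 38, and those high in replicate 3 numbered 84 and 19. At more than 3-fold and more than 4-fold these were 34 and 26, 36 and 20, and 2 and 1. Leaving out each other library gave 49 to 66 genes high in replicate 3, the most without replicate 1. With the element searched in the last 200 bases, the lowest 10% of replicate 1 held it in 12.5% and the highest 10% of replicate 4 in 14.8%, against 38.4% of all at 100 TPM or more. Leaving out each other library gave 3.12 to 12.5% for replicate 4. The cause of these differences was not tested, beyond the fewer or more genes that a filter leaves.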
